A study of Mus musculus with 4 samples.

Results

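Mitochondrial protein import and folding genes were compared between mouse bone marrow cultures lysed during a space shuttle flight and parallel cultures kept on the ground. The members were all probe sets whose platform annotation gave a single symbol beginning with Timm or Tomm and a digit, or 1 of 15 further symbols: Samm50, Mtx1, Mtx2, Grpel1, Grpel2, Pam16, Pmpca, Pmpcb, Hspd1, Hspe1, Hspa9, Chchd4, Gfer, Lonp1 and Clpp. They numbered 77 of 45101 probe sets and stood for 38 of 18193 genes. A further 3 probe sets with several symbols, for Tomm5 and Tomm6, lay outside the rule and are not described.

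Both groups came from 1 pool of marrow of 21 adult C57BL/6 mice over 8 weeks old, with red cells lysed and 1.5 µg/ml macrophage colony-stimulating factor (M-CSF) in sealed glass barrels at 37 °C. Fresh medium with M-CSF was mixed in on culture day 6, and guanidinium lysed the cells on culture day 15, which was day 14 of the flight for the space flight group. Each of the 4 arrays, 2 per group, carried RNA of 2 barrels combined, so replicates differ by culture and array and not by animal, and p-values cover that spread alone. Per the labels every RNA pool had an integrity number (RIN) of 3, and it was amplified in 2 rounds before it was put on Affymetrix mouse arrays, whose probes lie near the 3′ end of a transcript.

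Almost all mitochondrial proteins are made in the cytosol from nuclear genes and are brought into the organelle as unfolded chains. The translocase of the outer membrane (TOM) is their common gate. Behind it the sorting and assembly machinery (SAM) builds barrel proteins into the outer membrane, small chaperones of the intermembrane space guide membrane proteins, TIM22 inserts carriers into the inner membrane, and TIM23 with the import motor drives presequence proteins into the matrix, where a peptidase trims them, chaperones fold them and proteases remove those that fail.

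Levels are log2 intensities after 16 was added and the arrays were quantile normalized, which makes their overall distributions equal; a difference is the space flight mean minus the ground control mean on this scale and understates the change of dim genes. A gene is represented by its brightest probe set and is called measured where its mean reached 6.40, the median over all probe sets. By this rule 36 of the 38 genes were measured, and for 0 of them did the ground control mean lie below that limit. Timm8a2 and Tomm20l did not reach it, with 5.15 and 4.93 in space flight against 4.13 and 4.93 in ground control for Timm8a2, and 4.64 and 6.58 against 5.29 and 4.27 for Tomm20l.

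The arrays differed in RNA quality. For Gapdh, the 3′ control probe set was 15.2 times as bright as the 5′ one on space flight array 2, against 3.33 to 4.13 times on the 3 other arrays. The same ratio for Actb was also highest on that array, at 4.91 against 2.30 to 3.08, but for the transferrin receptor it was lowest there, at 3.47 against 4.96 to 7.84. Between the 2 space flight arrays the members differed with an SD of 0.504, against 0.345 between the 2 ground control arrays. Over all measured genes these SDs were larger, at 0.704 and 0.469. The 9 measured macrophage markers included Csf1r, Cd68 and Lyz2, each between 14.73 and 15.33 on all 4 arrays. Itgam, Mertk and Mrc1, also among them, were far lower, between 6.84 and 9.47. Marker levels of several cell types also differed between the groups. Of 11 measured neutrophil markers 10 had a difference above 0, where 51.2% of all measured genes did. In the test 2 of them were called higher, where 0.0449% of all measured genes were. The 11 markers had summed intensities of 86100 and 114200 in space flight against 49610 and 51970 in ground control. For 7 erythroid markers, 5 of them above 0, the sums were 6437 and 12210 against 1668 and 3396. Most of each sum was Slc4a1, with levels of 12.42 and 13.39 against 10.05 and 11.43 on a probe set that can bind other transcripts. Epor and Gata1 were dim and had differences of −0.34 and −0.42. For the 9 macrophage markers, 7 of them below 0, they were 120500 and 111600 against 142100 and 146200. B cell markers (2 measured) summed to 485 and 201 against 145 and 219, and proliferation markers (3 measured) to 518 and 1296 against 653 and 614. The part of these cell markers and of array quality in the differences below was not tested, and in RNA of a mixed culture fewer cells of a type and less RNA per cell cannot be told apart.

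The largest differences among the members were those of Gfer, Tomm22, Tomm7, Timm44 and Tomm34, between 0.76 and 0.88 on the log2 scale, and the lowest those of Timm21 and Mtx2, at −0.50 and −0.46. None passed the test. Of the 36 measured genes, 0 had an adjusted p under 0.05 in limma in the higher direction, where 0.0449% of 11141 measured genes did, and 0 in the lower, where 0.0180% did (0.0628% in either), and the lowest adjusted p was 0.124. At an unadjusted p under 0.05, 9 members (25.0%) stood higher, where 6.88% of all measured genes did, and 0 stood lower, where 7.32% did. Both space flight values lay above both ground control values for 18 members (50.0%; 23.0% of all measured genes) and below both for 2 (22.5% of all measured genes). The difference was above 0 for 27 of 36 members, against 51.2% of all measured genes, and the members' median was 0.23 against 0.015. These shares describe the list and were not tested as a set. With probe sets that can bind other transcripts left out where a gene had another, the members' median was 0.174 beside 0.005 for all genes. Where the arrays were instead shifted only to equal medians, 20 members had a difference above 0 beside 36.9% of all measured genes, 2 stood higher and 1 lower at an unadjusted p under 0.05 beside 2.89% and 10.5% of all genes, and the members' median was 0.061 where that of all genes was −0.16.

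**Figure D1:**
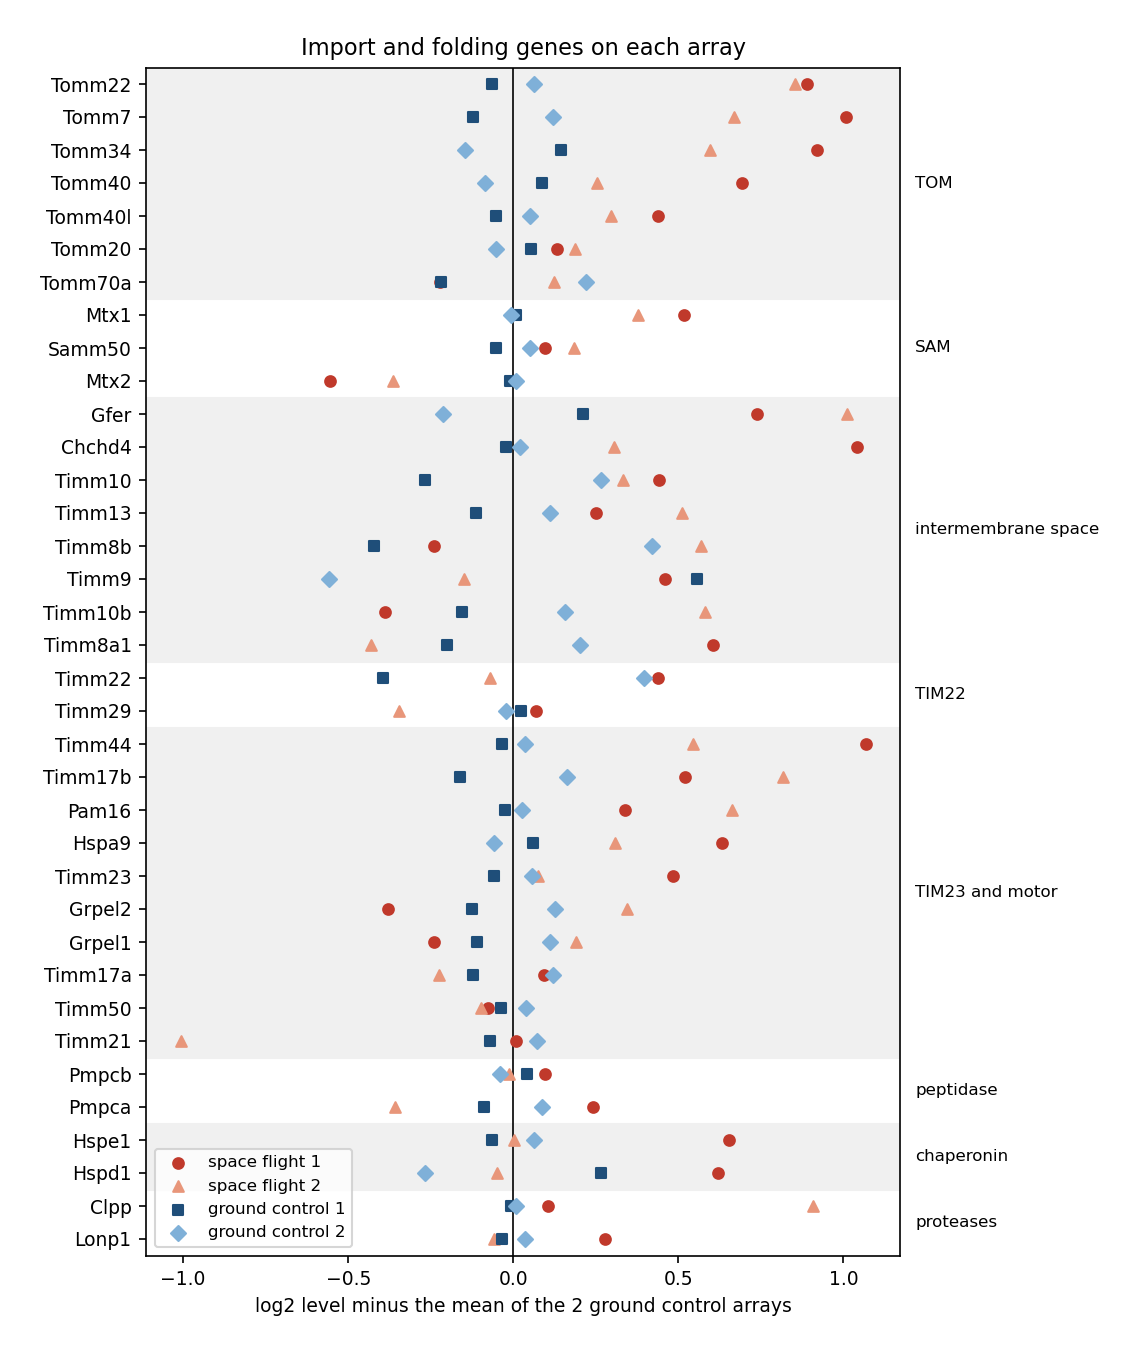
Each row is 1 of the 36 measured import and folding genes, grouped by role, and each symbol is 1 array, plotted as its log2 level minus the mean of the 2 ground control arrays. Both space flight arrays stand right of both ground control arrays for 18 genes and left of both for Mtx2 and Timm50.

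Promoter sequences, 250 bases before to 50 after a start site, were taken from RefSeq's GRCm38.p6 annotation table for 33 of the 38 genes, at 36 starts. The search of the members left out a chromosome that the windows of the whole table include. Grpel2, Hspa9, Timm21, Tomm40l and Tomm7 were not searched, and whether the annotation has a start for them is not shown here. Both strands were searched for heat shock element letters, TTCNNGAA and GAANNTTC, and for the NRF1 core GCATGCGC, NRF1 being a regulator of nuclear genes for mitochondria. TTCNNGAA was found at 9 member starts (25.0%) and in 8.52% of all 32851 windows of the table, GAANNTTC at 3 (8.33%, against 7.86%) and the NRF1 core at 2 (5.56%, against 2.71%). Hspd1 and Hspe1 lie head to head, and the window at an Hspd1 start shares 285 bases with that of Hspe1. The matches in these windows are therefore the same letters counted for both genes. The window at a further Hspd1 start shares 4 bases with that of Hspe1 and has no match. The 8 measured genes with heat shock letters had differences from 0.16 to 0.87 (median 0.35). The 23 other measured genes that were searched had differences from −0.46 to 0.88 (median 0.14). Hspd1 and Hspe1 both count among the 8, the matches of Clpp and Timm10 lie after the start site, and the unsearched genes are in neither group. Whether matches and differences are related was not tested. A match is a run of letters and not a shown site.

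The 150 bases before 3 start sites are printed 5′ to 3′ on the gene's strand, with matches in capitals: the shared chaperonin promoter, where 3 heat shock matches overlap (chr1:55087998-55088147, plus strand), that of Tomm22, which has the largest difference among the genes with a match (chr15:79670718-79670867, plus strand), and that of Grpel1, whose NRF1 core match on the reverse strand stands beside a difference of −0.024 (chr5:36465035-36465184, plus strand), all of build GRCm38.p6.
Hspe1: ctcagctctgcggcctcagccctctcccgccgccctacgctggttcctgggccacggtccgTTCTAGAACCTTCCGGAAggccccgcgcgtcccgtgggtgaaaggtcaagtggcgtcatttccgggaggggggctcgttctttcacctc
Tomm22: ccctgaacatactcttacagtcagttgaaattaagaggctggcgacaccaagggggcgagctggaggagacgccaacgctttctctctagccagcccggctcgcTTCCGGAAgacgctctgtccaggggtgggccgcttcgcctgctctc
Grpel1: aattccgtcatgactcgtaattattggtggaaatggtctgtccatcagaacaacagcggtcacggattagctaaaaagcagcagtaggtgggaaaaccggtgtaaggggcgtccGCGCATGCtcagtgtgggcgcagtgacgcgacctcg

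The TOM genes, with which the cytosolic helper Tomm34 was counted by its name, had 7 measured members and a median difference of 0.47. For 6 of them (85.7%) the space flight arrays lay above the ground control arrays, against 23.0% of all measured genes. Tomm7, a small subunit that tunes the assembly of the complex, read 13.07 and 12.73 in space flight and 11.94 and 12.18 in ground control. The groups were apart on all 3 of its measured probe sets. The difference was 0.84 ± 0.21 (SE, n = 2 arrays per group; 1.79-fold; limma adjusted p = 0.124) on the one used and 0.85 and 1.13 on the others, while a further probe set with a mean under the limit gave −1.09. Tomm22, the central receptor that ties receptors and channel together and has the heat shock letters shown, read 11.05 and 11.02 against 10.10 and 10.23. Its space flight values were nearly equal and clear of the ground control values, and the difference was 0.87 ± 0.26 (SE; 1.83-fold; limma adjusted p = 0.171), with 0.95 on its other probe set.

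Tomm34, a cytosolic partner of Hsp70 and Hsp90 that helps keep precursors ready for import, read 11.03 and 10.71 against 10.26 and 9.97, a difference of 0.76 ± 0.28 (SE; limma adjusted p = 0.251). The channel gene Tomm40 read 8.81 and 8.38 against 8.21 and 8.04, and its difference of 0.47 ± 0.35 (SE) had a 95% interval from −0.30 to 1.25. Its paralog Tomm40l had 0.37, but −0.0039 on its other measured probe set.

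The presequence receptor Tomm20 read 14.82 and 14.87 against 14.74 and 14.63, a separation of the groups by a difference of 0.16 ± 0.12 (SE). With the intensities as deposited, not quantile normalized, it was 0.42, and limma's adjusted p was 0.539. Of its 6 probe sets 5 gave values from 0.087 to 0.50 and the sixth gave −0.60. Tomm70a, the receptor of carriers and other precursors without a cleaved presequence, read 11.03 and 11.37 against 11.03 and 11.47, so the groups overlapped, with a difference of −0.049 ± 0.27 (SE) and 0.092, −0.23 and 0.26 on its other measured probe sets.

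In the SAM complex the metaxins, its outer partners, stood on opposite sides. Mtx1 read 12.02 and 11.88 in space flight and 11.51 and 11.49 in ground control, a difference of 0.45 ± 0.22 (SE; limma adjusted p = 0.391). Mtx2 read 9.92 and 10.11 against 10.46 and 10.48, a difference of −0.46 ± 0.27 (SE; limma adjusted p = 0.477). Mtx1 minus Mtx2 within an array was 2.10 and 1.77 in space flight and 1.04 and 1.01 in ground control, without overlap. With 2 arrays per group, 0.333 is the smallest two-sided p of an exact permutation test. Of 4 such pairs, all chosen with values in view, Timm17b and Timm17a also gave no overlap, while Tomm40 minus Tomm40l and Grpel1 minus Grpel2 shifted by 0.11 and −0.007 with overlap. The core subunit Samm50, which inserts barrel proteins, read 12.62 and 12.71 against 12.47 and 12.57 and differed by 0.14 ± 0.19 (SE).

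Of the 8 measured genes of the intermembrane space all had a difference above 0 on the probe set used (median 0.27). With arrays shifted only to equal medians, Timm8a1, Timm8b and Timm10b were below 0. For 4 genes (50%) both space flight values lay above both ground control values, against 23.0% of all measured genes. Gfer, the sulfhydryl oxidase that recharges the disulfide relay, read 10.57 and 10.84 against 10.04 and 9.62. This was the largest difference among the members, 0.88 ± 0.29 (SE; 1.83-fold; limma adjusted p = 0.205), with 0.46 on its other probe set. Chchd4, the relay's oxidoreductase that folds incoming cysteine-rich proteins, read 11.91 and 11.17 against 10.85 and 10.89. Both values lay above the ground control values but were themselves far apart. The difference was 0.67 ± 0.29 (SE; limma adjusted p = 0.322); it was 1.04 with space flight array 2 left out and 0.31 with array 1 left out.

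The small Tim chaperones, clients of that relay, were more scattered. Timm13 read 12.29 and 12.55 against 11.93 and 12.16, and differed by 0.38 ± 0.21 (SE; limma adjusted p = 0.454). Timm10 stood at 0.39 ± 0.27 (SE), with its lower space flight value of 11.29 just above the higher ground control value of 11.22. Timm8a1, Timm8b, Timm9 and Timm10b had differences from 0.087 to 0.16 with overlapping groups. The other measured probe sets of Timm10b gave −0.12, −0.0015 and −0.11, and that of Timm8a1 gave 0.28. For Timm8a1 the space flight arrays read 11.03 and 9.99, and for Timm10b 9.79 and 10.76, so on either gene 1 space flight array lay above and the other below both ground control arrays.

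**Figure D2:**
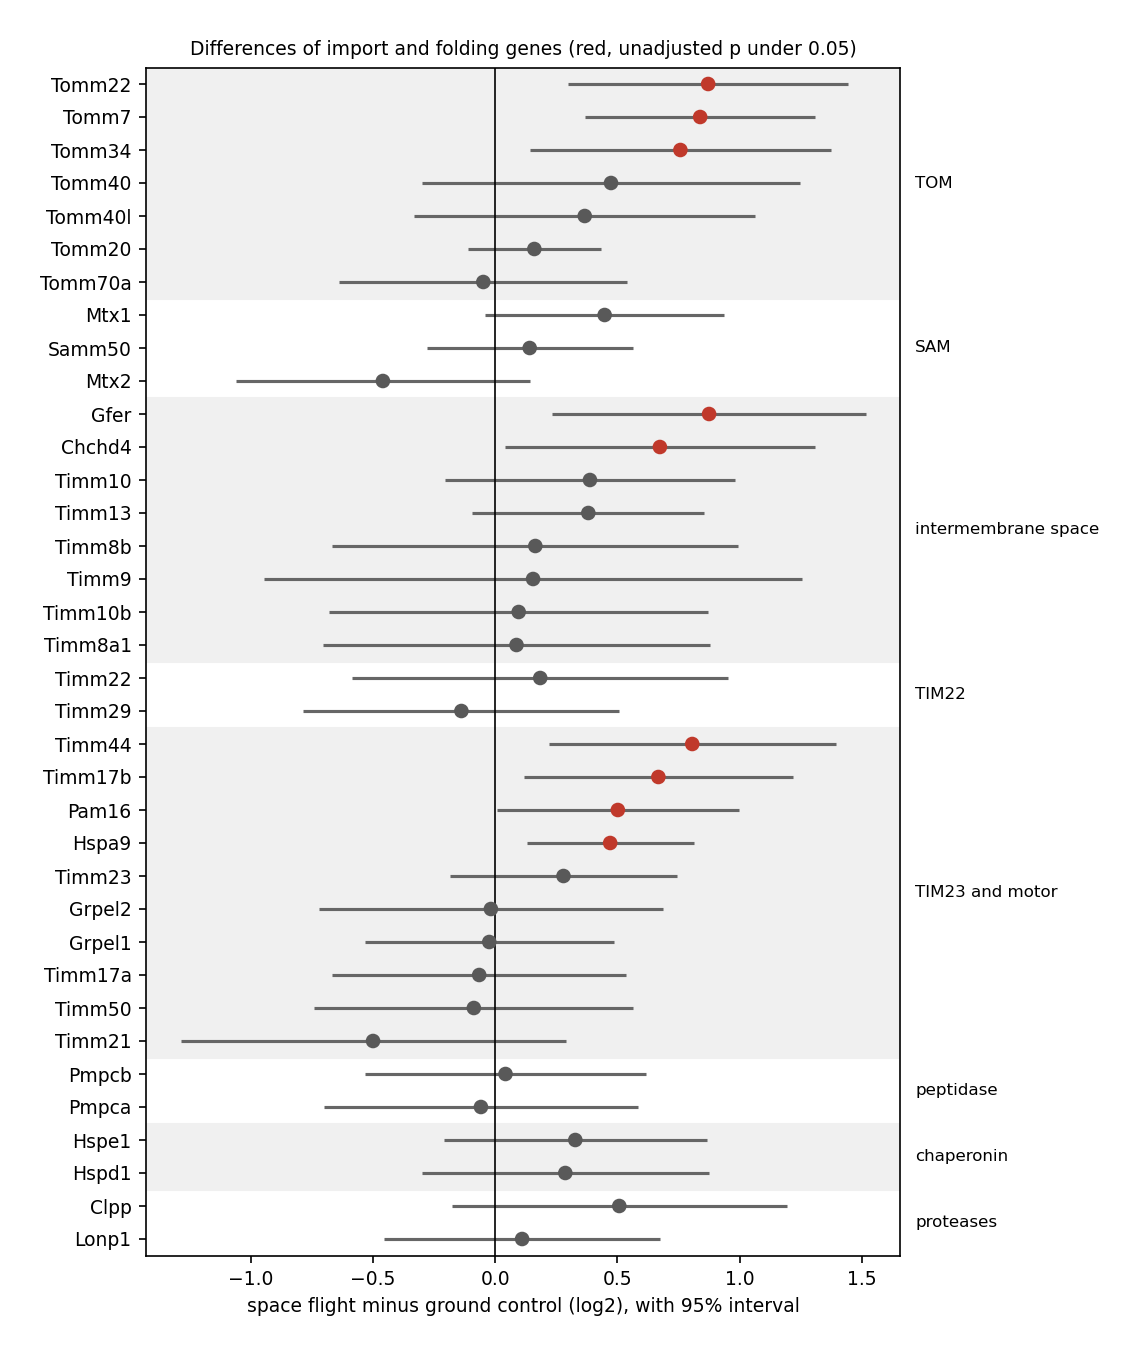
Points are differences of the 36 measured genes, space flight minus ground control on the log2 scale, and lines are 95% intervals from limma with 2 arrays per group. The 9 red points have an unadjusted p under 0.05; the intervals of the others include 0.

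For TIM22 the channel gene Timm22 read 10.20 and 9.70 against 9.37 and 10.16, and its partner Timm29 read 10.08 and 9.66 against 10.03 and 9.98. The groups overlapped for both, and the differences were 0.18 ± 0.35 and −0.14 ± 0.29 (SE).

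The 10 genes of TIM23 and the import motor were split evenly, 5 above and 5 below 0. Of the motor, Timm44, which tethers the chaperone to the channel, read 11.83 and 11.30 in space flight against 10.72 and 10.79 in ground control. Its difference was 0.81 ± 0.27 (SE; 1.75-fold; limma adjusted p = 0.204), and the groups were also apart on its 2 other probe sets, at 0.93 and 0.48. Hspa9, the matrix Hsp70 that pulls the chain in, read 14.67 and 14.34 against 14.09 and 13.97, a difference of 0.47 ± 0.15 (SE; limma adjusted p = 0.204). Its other measured probe sets gave 0.36 with overlap and 0.79 without.

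Pam16, which regulates the J protein of the motor, read 12.02 and 12.35 against 11.66 and 11.71, a difference of 0.50 ± 0.22 (SE; limma adjusted p = 0.342). For the nucleotide exchange factors that reset Hspa9 the groups overlapped. Grpel1, with the NRF1 letters shown, read 11.90 and 12.34 against 12.03 and 12.26, and Grpel2 read 9.85 and 10.57 against 10.10 and 10.35, with differences of −0.024 ± 0.23 and −0.018 ± 0.32 (SE). Their 95% intervals, from −0.53 to 0.49 for Grpel1 and from −0.72 to 0.69 for Grpel2, include the 0.47 of Hspa9.

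In the channel itself Timm23, the pore, read 12.94 and 12.54 against 12.40 and 12.52, a difference of 0.28 ± 0.21 (SE) with the lower space flight value barely above the higher ground control value. Its partner exists in 2 forms. Timm17b read 11.64 and 11.94 against 10.96 and 11.29, a difference of 0.67 ± 0.25 (SE; limma adjusted p = 0.259), but its other probe set gave 0.069. Timm17a read 10.74 and 10.43 against 10.53 and 10.77, a difference of −0.066 ± 0.27 (SE). Timm17b minus Timm17a within an array was 0.90 and 1.51 in space flight and 0.43 and 0.52 in ground control, again without overlap.

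The presequence receptor Timm50 stood at −0.088 ± 0.29 (SE), with both space flight values just below the ground control values on this probe set and 0.067 on another. Timm21, which links TIM23 to the TOM gate, read 10.25 and 9.23 against 10.17 and 10.31. Its difference of −0.50 ± 0.36 (SE; limma adjusted p = 0.566), the lowest among the members, came from space flight array 2, and without that replicate it was 0.008.

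Past the membranes, the peptidase subunits Pmpcb and Pmpca, which cut off presequences, differed by 0.042 ± 0.26 and −0.059 ± 0.29 (SE). Pmpcb read 10.65 and 10.54 against 10.60 and 10.52, so the groups overlapped. The other probe sets of the subunits gave 0.21 for Pmpcb and −0.18 for Pmpca. The chaperonin pair Hspd1 (Hsp60) and Hspe1 (Hsp10), which together form the matrix folding chamber, had differences of 0.29 ± 0.27 and 0.33 ± 0.24 (SE). Hspd1 read 13.09 and 12.42 against 12.73 and 12.20, and Hspe1 read 12.89 and 12.24 against 12.17 and 12.30. Hspe1 and an Hspd1 start share the printed promoter with its 3 overlapping matches. For both genes space flight array 1 was highest and array 2 lay inside the ground control range. The other probe set of Hspe1 gave 0.52 without overlap. The Hspe1 difference was 0.002 with space flight array 1 left out and 0.65 with array 2 left out.

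Of the matrix proteases, Clpp, the peptidase core of ClpXP, read 10.53 and 11.33 against 10.42 and 10.43, a difference of 0.51 ± 0.31 (SE; limma adjusted p = 0.495), with 0.30 on its other probe set. The difference was 0.91 with space flight array 1 left out and 0.11 with array 2 left out. Lonp1, the Lon protease, read 11.25 and 10.91 against 10.93 and 11.00, with overlap and a difference of 0.11 ± 0.25 (SE). With arrays shifted only to equal medians the differences of Lonp1, Pmpcb, Samm50 and Timm22 were below 0.

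Over all 68 measured probe sets of the members 51 gave a difference above 0, against 48.6% of all 22519 measured probe sets. Of the 21 genes with over 1 measured probe set, 6 had probe sets on opposite sides of 0: Timm10b, Timm29, Timm50, Tomm20, Tomm40l and Tomm70a. Of the 9 members at an unadjusted p under 0.05, 6 had a further measured probe set, and each of those gave a difference above 0.

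**Figure D3:**
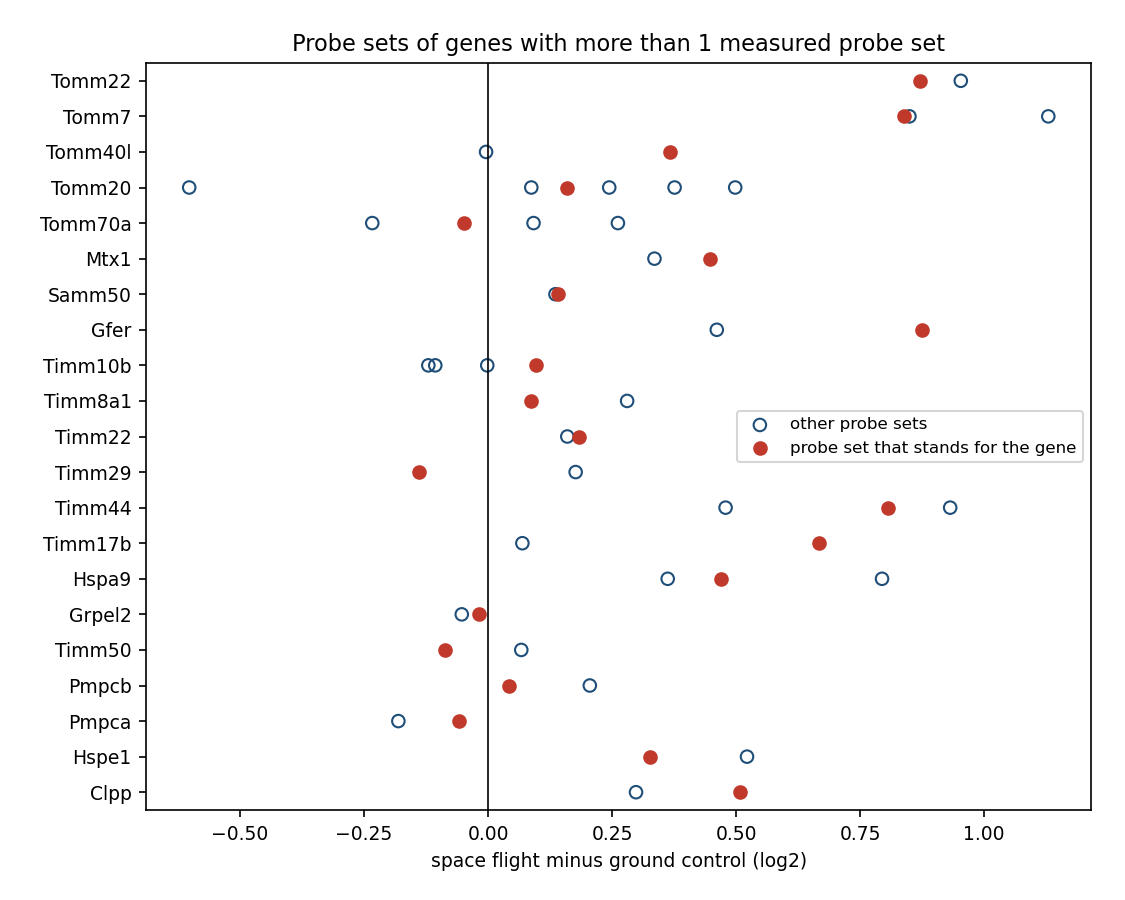
For the 21 genes with over 1 measured probe set, each symbol is the difference of 1 probe set, space flight minus ground control on the log2 scale, with the probe set used for the gene filled. Tomm7, Tomm22, Timm44 and Hspa9 have all measured probe sets above 0, while those of Tomm20 run from −0.60 to 0.50.

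Which members stood out depended on the arrays used. Chchd4, Hspa9, Timm44 and Tomm7 differed by 1.04, 0.63, 1.07 and 1.01 without space flight replicate 2, where the members' median was 0.39. Without space flight replicate 1 these genes stood at 0.31, 0.31, 0.54 and 0.67, and the members' median was 0.22. Clpp went from 0.11 without replicate 2 to 0.91 without replicate 1, and Timm21 from 0.008 to −1.008. A fit without 1 space flight array takes the spread of the lone array from the ground control arrays, so genes called by it are not named here. Without ground control replicate 1 or 2, 0 members were called, 4 and 4 stood higher at an unadjusted p under 0.05 where 3.63% and 4.28% of all genes did, and the median was 0.22 and 0.36.

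The pathway's remaining genes, among them insertases, membrane proteases and cristae proteins, had 33 of 36 listed genes measured and a median of 0.092. Of these 0 passed the test in either direction; 3 (9.09%) stood higher and 3 (9.09%) lower at an unadjusted p under 0.05, near the 6.88% and 7.32% of all measured genes. The highest by moderated statistic were Romo1, a small inner membrane protein of the TIM23 surroundings, at 0.62 ± 0.19, the copper chaperone and relay client Cox17 at 0.60 ± 0.21 and the matrix cyclophilin Ppif at 0.77 ± 0.34 (SE). The lowest were the third metaxin Mtx3 at −0.95 ± 0.33, the membrane protease subunit Afg3l2 at −0.70 ± 0.26 and the cristae organiser Immt at −0.63 ± 0.26 (SE). Adjusted p of these 6 genes was 0.176 or higher in limma.

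Among 11 measured regulators, 0 passed limma's test, while 3 (27.3%) stood higher and 1 (9.09%) lower at an unadjusted p under 0.05, beside the same 6.88% and 7.32%. The stress response factors Atf4, Ddit3 and Atf5 had the highest statistics. Atf4 read 14.26 and 14.52 in space flight against 13.67 and 13.62 in ground control, a difference of 0.74 ± 0.15 (SE; limma adjusted p = 0.0910). Ddit3 read 12.39 and 12.40 against 11.22 and 11.47, a difference of 1.05 ± 0.22 (SE; limma adjusted p = 0.0910), and Atf5, a factor of the mitochondrial unfolded protein response, read 13.18 and 13.11 against 12.34 and 12.23, a difference of 0.86 ± 0.19 (SE; limma adjusted p = 0.0982). The lowest were Gabpa, a driver of nuclear genes for mitochondria, at −0.73 ± 0.30, the coactivator Ppargc1b at −0.49 ± 0.30 and Myc at −0.47 ± 0.35 (SE).

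Beside other gene groups, the members' median of 0.23 stood next to 0.24 for 34 genes with complex I subunit symbols (Nduf). It was 0.22 for 76 genes with mitochondrial ribosomal protein symbols (Mrpl or Mrps) and 0.13 for 8 genes of the cytosolic chaperonin. The Nduf and Mrp lists were set by symbol alone, so Ndufa4, Ndufa4l2 and Mrps36 count in them whatever complex their proteins belong to. By the same unadjusted p, 13 complex I genes (38.2%), 6 ribosomal genes (7.89%) and 1 chaperonin gene (12.5%) stood higher. The share was 25.0% for the members and 6.88% for all measured genes. Lower stood 1 chaperonin gene (12.5%) and 0 genes of the other groups, where 7.32% of all measured genes did. By array the members' median above the ground control mean was 0.39 and 0.22 on space flight arrays 1 and 2, and that of complex I was 0.17 and 0.42. Differences between these groups were not tested.

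**Figure D4:**
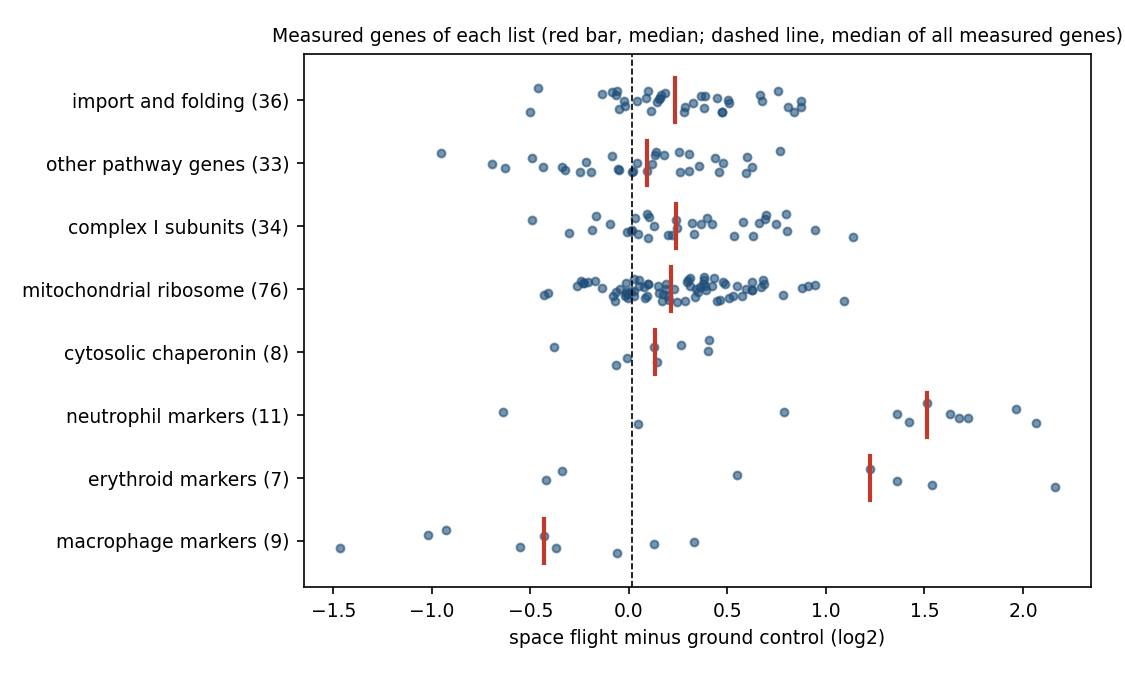
Each point is the difference of 1 measured gene, space flight minus ground control on the log2 scale, with the number of genes beside the list's name. Red bars are medians and the dashed line is the median of all measured genes, 0.015. The members' median of 0.23 lies between 0.22 for mitochondrial ribosomal genes and 0.24 for complex I subunits, both lists set by symbol alone.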

How the data were processed

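The values deposited by the authors are linear intensities, 1 for each probe set on each array. GCOS is named in the submitters' processing notes, while how probes were summarised is not given in the sources used here. Every deposited array has a trimmed mean intensity of 500.004, with 2% cut from each end. From these intensities log2(value + 16) was taken in R 4.3.3 and quantile normalized without 64 control probe sets, since array medians differed by up to 0.385. Of 45037 other probe sets, 34945 had 1 platform symbol, 932 several and 9160 none. Each of 18193 genes was represented by its brightest probe set, and 11141 were measured. The groups were tested with limma 3.58.1 (lmFit, eBayes with an intensity trend, two-sided) over all measured genes, with Benjamini-Hochberg adjustment, a threshold of 0.05, 2 residual and 10.4 moderated degrees of freedom. The procedure was tested on simulated data with planted changes larger than the difference of any member. It therefore does not show whether changes of the members' size would be found. The 4 arrays limit the precision.

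The members and gene lists were chosen with earlier results of these data known, so no list is independent evidence. All members are accounted for, and values on every array are given for the 12 with the largest moderated statistic and for central genes of the machinery fixed by name; of other pathway genes and regulators, the 3 highest and 3 lowest are named. Alternatives covered array scaling, pseudocount, the filter on dim genes, the choice of probe set, the intensity trend, a replicate block and each array left out.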

Additional observations from a re-analysis of the deposited data

How the results depend on the processing

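With 0 members past limma's threshold in the reported fit, 12 of the 15 alternatives also gave 0 in both directions. In the fit with the replicate number as a block, 1 member was higher (Tomm7, adjusted p = 0.024) and 433 genes of all measured genes passed; the equal numbers are not known to pair the arrays, and replicate differences of the groups correlated at 0.057 over 11141 genes. Leaving out 1 array gave 0 to 4 members higher and 0 to 1 lower, with medians from 0.218 to 0.388, 4 to 10 members higher (3.63% to 12.1% of all genes) and 0 to 1 lower (3.04% to 12.9%) at an unadjusted p under 0.05, and 7 to 1080 genes of all past the threshold. Counts at an unadjusted p, of differences above 0 and of groups without overlap were added after seeing the data. Where arrays were only shifted to equal medians, the all-gene median went from 0.015 to −0.162 and that of the members to 0.061, so the gap between them was 0.223 against 0.217; 2 members were then higher and 1 lower at an unadjusted p under 0.05 (2.89% and 10.5% of all genes), and 10 separated the groups upward (13.8% of all genes). Without an intensity trend 5 were higher at an unadjusted p (6.36% of all genes). The count over all genes was 16 with values as deposited, 21 with cyclic loess, 12 with a pseudocount of 64, 26 without probe sets that can bind other transcripts, 11 with all probe sets fitted, and 0 with 1 median per array, no filter on dim genes, the mean of probe sets or no trend. The cause of these shifts was not tested.

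The sign held for 20 of 36 members under all alternatives run, among them the 9 at an unadjusted p under 0.05. With 1 median per array it turned for Lonp1 (−0.142), Pmpcb (−0.215), Samm50 (−0.049), Timm10b (−0.15), Timm22 (−0.047), Timm8a1 (−0.173), Timm8b (−0.086), with values as deposited for Pmpcb (−0.012), with cyclic loess for Grpel2 (0.003), with the mean of probe sets for Timm10b (−0.033) and Timm29 (0.019), and without probe sets that can bind other transcripts for Timm10b (−0.12) and Tomm70a (0.092). With 1 array left out, differences that turned ran from −0.24 to 0.191 for Grpel1, from −0.38 to 0.345 for Grpel2, from −0.048 to 0.621 for Hspd1, from −0.057 to 0.277 for Lonp1, from −0.359 to 0.242 for Pmpca, from −0.013 to 0.097 for Pmpcb, from −0.389 to 0.581 for Timm10b, from −0.224 to 0.092 for Timm17a, from −1.008 to 0.008 for Timm21, from −0.212 to 0.58 for Timm22, from −0.347 to 0.069 for Timm29, from −0.432 to 0.606 for Timm8a1, from −0.256 to 0.584 for Timm8b, from −0.403 to 0.712 for Timm9, from −0.268 to 0.17 for Tomm70a.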
